A study of Mus musculus with 9 samples.

Results

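The collagen gene family was followed in mouse bone marrow macrophages under 2 drugs. Its members were taken by name, as all genes of the deposited table whose symbol consists of Col, a type number, a and a chain number. This gave 43 of the 28998 genes in the table. RNA had been measured in 9 libraries, 3 each of WGFT17, JHU083 and Control cells. The cells, labelled BMDMs and of wild-type genotype, came from C57 mice: monocytes of the bone marrow spent 7 days in the growth factor GM-CSF, and 36 h of drug followed. WGFT17 is a code name and appears as T17 in the title of the series. JHU083 is known to release DON, an antagonist of glutamine. The labels state neither doses nor what Control cells received and for how long. They are also silent on whether the 3 libraries of a group are separate cultures or animals, so each p-value speaks of the spread between libraries, which may be technical.

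Collagens are proteins built of 3 chains wound into a triple helix, and each gene of the family encodes 1 chain. Fibrillar collagens form the cross-striated fibres of connective tissue, type IV forms the sheets of basement membranes, and type VI forms beaded filaments around cells. The FACIT collagens sit on the surface of fibrils, the short-chain types VIII and X form hexagonal networks, and the multiplexins XV and XVIII lie next to basement membranes and carry side chains of glycosaminoglycan. Fibroblasts, osteoblasts, chondrocytes, smooth muscle and endothelial cells are the usual sources, and macrophages are known mainly for taking up and degrading collagen, although several chains, type VI and VIII among them, have been described in macrophages too.

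Levels are the authors' FPKM, fragments scaled to transcript length and library size, and are given in the order of replicates 1 to 3. Setting the levels of different chains against each other thus rests on the authors' scaling to length. Log2 changes come from an edgeR quasi-likelihood fit of the estimated counts deposited beside them, with all 9 libraries in 1 fit, and are given with their standard error (SE). P-values were adjusted by Benjamini-Hochberg over the 11798 genes with a mean of at least 1 FPKM, and a gene was called at an adjusted p under 0.05. Total estimated counts ranged from 56624220 to 69112134 over the 9 libraries. The cells carried the macrophage genes Adgre1, Csf1r and Cd68 in all 9 libraries, with the lowest values at 223, 217 and 917 FPKM. Libraries differed in transcripts of other tissues, and JHU083 was not uniform in them. Summed over 8 photoreceptor genes, the level was 0.150, 0.140 and 0.0800 FPKM in WGFT17, 0.170, 0.120 and 7.28 FPKM in JHU083 and 7.53, 8.47 and 6.36 FPKM in Control. Over 8 heart muscle genes it was 0.140, 0.230 and 0.210 FPKM in WGFT17, 48.5, 0.250 and 76.0 FPKM in JHU083 and 67.9, 58.3 and 63.2 FPKM in Control. Replicate 3 of JHU083 thus stood with Control in photoreceptor RNA, and replicate 2 stood with WGFT17 in heart muscle RNA. Over 8 hepatocyte genes the sums were 83.8 to 197 FPKM in WGFT17, 61.2 to 206 FPKM in JHU083 and 367 to 411 FPKM in Control, with 6 and 7 of 8 genes lower in WGFT17 and JHU083 than in Control, where 30.0% and 12.5% of all tested genes were lower. The part of these transcripts in the collagen results was not tested, and the count of tested collagens lower in JHU083 is also given with its libraries left out in turn.

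Of the 43 collagen genes, 18 had a mean of at least 1 FPKM and were tested. They were 8 of 11 fibrillar chains, 3 of 6 basement membrane chains, 3 of 6 chains of type VI and its relatives, 2 of 8 FACIT chains, 1 of 3 network chains and 1 of 2 multiplexins. The anchoring fibril chain, the 4 transmembrane chains and 2 others were all under the limit. Just inside it lay Col4a5 with a mean of 1.21 FPKM, and just outside it Col15a1 with 0.648 FPKM. In 13 of the 18 the mean was at least 1 FPKM in every group. The other 5, Col2a1, Col5a3, Col11a1, Col4a5 and Col6a3, were under 1 FPKM in WGFT17 and passed only through JHU083 and Control, so a fall in WGFT17 is partly built into their selection.

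Summed over all 43 genes, collagen transcripts amounted to 345, 332 and 352 FPKM in the WGFT17 libraries, 1485, 1366 and 1238 FPKM in the JHU083 libraries and 1944, 2044 and 1889.8 FPKM in the Control libraries. The 3 groups did not overlap. As a share of all FPKM this was 0.114% to 0.122% in WGFT17, 0.438% to 0.511% in JHU083 and 0.660% to 0.710% in Control. WGFT17 cells thus held 5.72-fold less collagen RNA than Control cells, and JHU083 cells 1.44-fold less. In these bulk samples, fewer cells of a collagen-making type and less collagen RNA per cell cannot be told apart.

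Of the 18 tested genes, 17 were lower and 1, Col18a1, was higher in WGFT17 than in Control. Among all tested genes 30.0% were lower and 28.0% higher in that comparison, 58.0% in either direction. Of the 13 collagen genes with at least 1 FPKM in every group, 12 were lower and 1 higher. The median log2 change of the 18 was -2.46, against 0.0044 over all 11798 genes. In JHU083 against Control, 15 of the 18 were lower and 0 higher, where 12.5% of all tested genes were lower and 11.5% higher (24.0% in either direction), and the median was -0.56 against 0.0037 over all genes. At an unadjusted p under 0.05, 1 gene (Col8a1) was higher in JHU083, DESeq2 called 0 higher, and limma on log2 FPKM called 1. The count of lower genes was again 15 without JHU083 replicate 3, and 14 without replicate 1 or replicate 2 of JHU083. Tested against a minimum fold of 1.5, 2 of the 18 (Col2a1 and Col6a3) were lower in JHU083, and 11 of all 11798 genes. In WGFT17 against JHU083, 17 were lower and Col18a1 higher, where 24.4% of all tested genes were lower and 20.4% higher (44.7% in either direction), with a median of -1.84 against 0.0062 over all genes. Of the 13 collagen genes with at least 1 FPKM in every group, 12 were lower and 1 higher here too. The comparisons with Control share their 3 Control libraries, so they are not independent of each other.

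**Figure D1:**
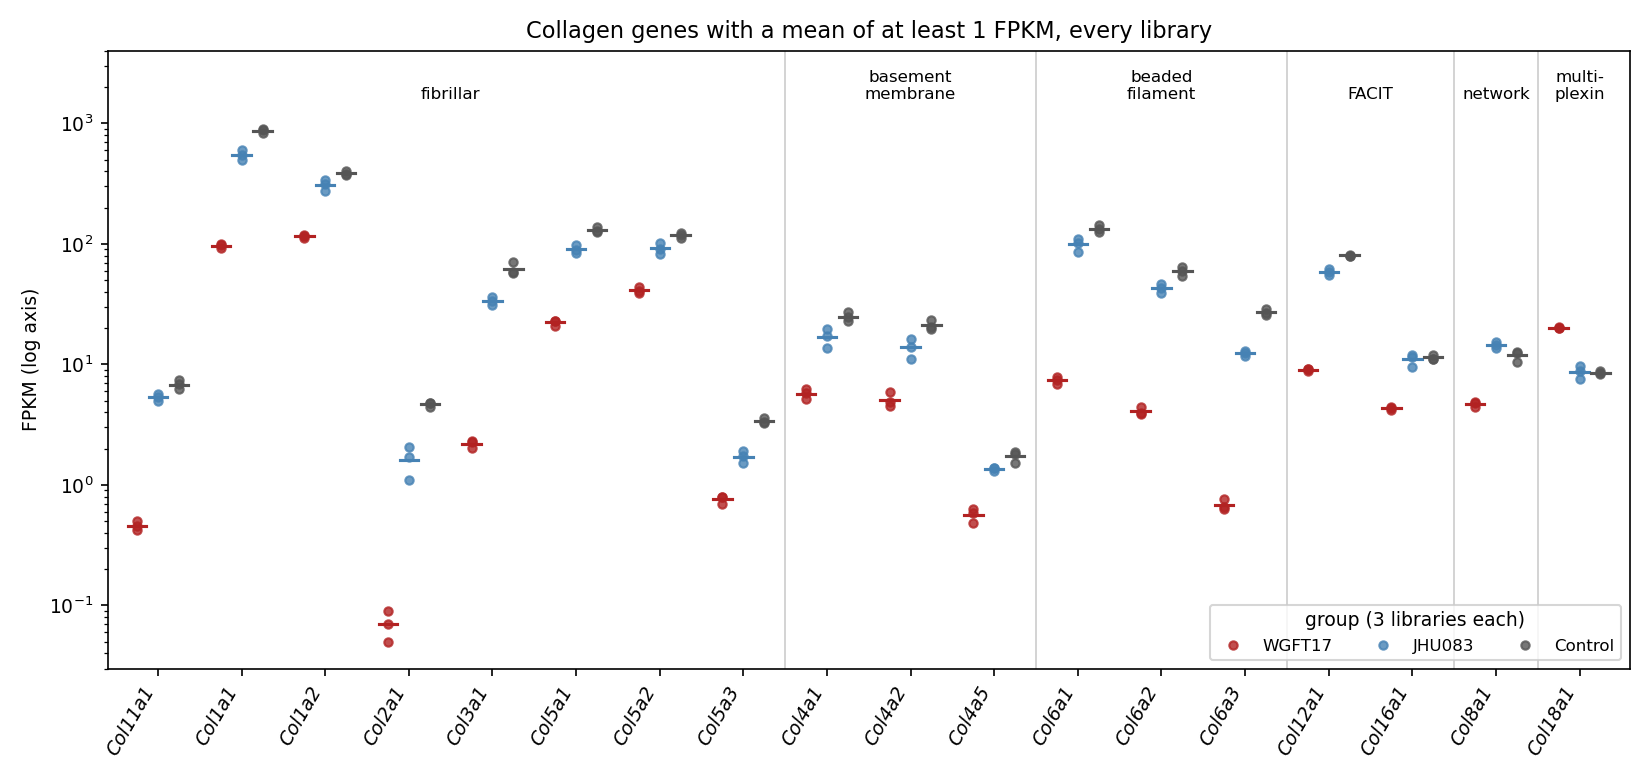
FPKM of the 18 tested collagen genes on a log axis, ordered by class; each point is 1 library, the short line is the group mean, and the groups stand in the order WGFT17, JHU083 and Control. For 15 genes all WGFT17 libraries lie below all JHU083 libraries and these below all Control libraries, and Col18a1 is the gene with WGFT17 on top.

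The order of levels was alike for most members. For 15 of the 18 genes WGFT17 lay lowest, JHU083 between and Control highest, with no overlap between any of the 3 groups. Col16a1 had the same order of means, but its JHU083 and Control libraries overlapped. For Col8a1 the order was WGFT17, Control and JHU083 from low to high, without overlap, and for Col18a1 it was Control, JHU083 and WGFT17, with JHU083 and Control overlapping. Non-overlap is common in these data: 73.2% of all tested genes showed it between WGFT17 and Control, 53.4% between WGFT17 and JHU083, and 43.7% between JHU083 and Control. Among the collagen genes the counts were 18, 18 and 16 of 18.

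By class, summed FPKM were 17.9-fold lower in WGFT17 than in Control for beaded filament collagens, 6.55-fold for FACIT, 5.64-fold for fibrillar, 4.19-fold for basement membrane and 2.73-fold for network collagens. The sums of JHU083 against Control were lower by 1.42-fold, 1.32-fold, 1.46-fold and 1.497-fold for beaded filament, FACIT, fibrillar and basement membrane collagens. These 4 classes were lower by similar folds in JHU083, while the network sum was higher (1.18 times Control) and the multiplexin sum close to Control (0.973 times); no test between classes was made. Network sums were 4.84, 4.50 and 4.93 FPKM in WGFT17, 16.0, 14.6 and 15.3 FPKM in JHU083 and 13.3, 14.1 and 11.6 FPKM in Control, and multiplexin sums 20.5, 20.1 and 20.8 FPKM in WGFT17, 10.3, 9.50 and 8.22 FPKM in JHU083 and 9.80, 9.49 and 9.51 FPKM in Control. Single genes make up most of the network, multiplexin and FACIT sums, namely Col8a1, Col18a1 and Col12a1. Col15a1, the other multiplexin, had a lower mean in WGFT17 than in Control (0.227 against 1.07 FPKM).

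**Figure D2:**
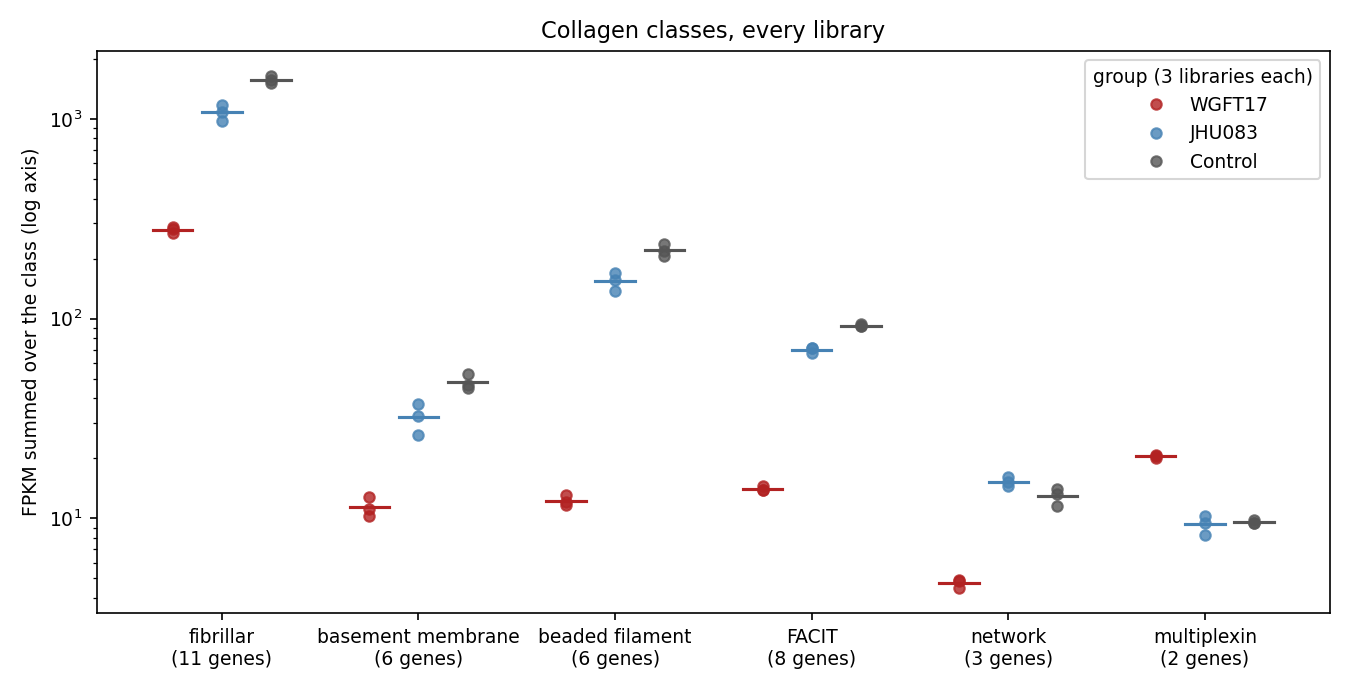
FPKM summed over the genes of each collagen class on a log axis, with 1 point per library, the group mean as a short line, and the groups in the order WGFT17, JHU083 and Control. The beaded filament class shows the widest distance, with WGFT17 sums of 11.6 to 13.2 FPKM and Control sums of 205 to 236 FPKM, and the multiplexin class, whose sum is mostly Col18a1, is the one with WGFT17 above the other groups.

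Fibrillar collagens made up most of the family's RNA in every library, 81.0% to 82.1% of collagen FPKM in WGFT17, 79.1% to 79.4% in JHU083 and 80.0% to 81.1% in Control. All 8 tested chains were lower in both drug groups than in Control. Col1a1 (chromosome 11, 94936224 to 94953042 in GRCm38 coordinates), which encodes the main chain of type I, the fibre of bone, tendon and skin, had 99.5, 92.8 and 97.2 FPKM in the WGFT17 libraries, 595, 548 and 495 FPKM in the JHU083 libraries and 875, 890.0 and 832 FPKM in the Control libraries. Its groups were far apart, with WGFT17 9.67-fold lower than Control (log2 change -3.27, SE 0.071, adjusted p = 8.24e-11) and JHU083 1.69-fold lower (-0.76, SE 0.065, adjusted p = 0.000149). By mean FPKM it ranked 399 among all genes of the table in WGFT17, 51 in JHU083 and 34 in Control.

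Col1a2 (chromosome 6, 4504814 to 4541544), the partner chain of Col1a1 in type I, had 116, 112 and 119 FPKM in the WGFT17 libraries, 338, 316 and 274 FPKM in the JHU083 libraries and 382, 400.5 and 369.7 FPKM in the Control libraries. It fell less than Col1a1, by 1.84 on the log2 scale in WGFT17 (SE 0.072, adjusted p = 3.49e-09) and by 0.41 in JHU083 (SE 0.07, adjusted p = 0.00308). In WGFT17, Col1a2 was the collagen gene with the highest mean FPKM, whereas Col1a1 was in JHU083 and Control. Col1a1 held 27.7% to 28.9% of collagen FPKM in WGFT17, 39.97% to 40.1% in JHU083 and 43.5% to 45.0% in Control. For Col1a2 these shares were 33.5% to 33.7%, 22.1% to 23.1% and 19.6% to 19.7% in the same groups.

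Col3a1 (chromosome 1, 45311538 to 45349706), the single chain of type III, which forms thin fibres together with type I, had 2.33, 2.25 and 2.04 FPKM in the WGFT17 libraries, 36.3, 31.2 and 33.9 FPKM in the JHU083 libraries and 57.0, 71.1 and 58.9 FPKM in the Control libraries. It was 30.4-fold lower in WGFT17 than in Control (log2 change -4.93, SE 0.1, adjusted p = 8.24e-11) and 1.97-fold lower in JHU083 (-0.98, SE 0.087, adjusted p = 0.000153). The type V gene Col5a2 lies next to Col3a1, tail to tail, with 24614 bases between them (chromosome 1, 45374321 to 45503282). It fell much less, by 1.62 on the log2 scale in WGFT17 (SE 0.074, adjusted p = 1.07e-08) and by 0.46 in JHU083 (SE 0.072, adjusted p = 0.00212). Its values were 40.7, 38.9 and 44.1 FPKM in the WGFT17 libraries, 101, 90.2 and 83.1 FPKM in the JHU083 libraries and 119, 123 and 113 FPKM in the Control libraries. Among collagen genes it ranked 3 in WGFT17, 4 in JHU083 and 5 in Control by mean FPKM.

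Type V collagen starts and limits the growth of type I fibrils. Its main chain Col5a1 (chromosome 2, 27886425 to 28039514) had 22.7, 21.01 and 23.1 FPKM in the WGFT17 libraries, 98.1, 89.4 and 83.5 FPKM in the JHU083 libraries and 129, 137 and 125 FPKM in the Control libraries. The fall was 6.30-fold in WGFT17 (log2 change -2.65, SE 0.068, adjusted p = 1.76e-10) and 1.54-fold in JHU083 (-0.62, SE 0.064, adjusted p = 0.000376). The rarer chain Col5a3 averaged 0.763 ± 0.0551 FPKM in WGFT17, 1.72 ± 0.195 FPKM in JHU083 and 3.39 ± 0.155 FPKM in Control (mean ± SD, n = 3 each). It was 4.79-fold lower in WGFT17 and 2.104-fold lower in JHU083 than in Control (edgeR adjusted p = 1.89e-08 and 0.000299).

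The fibrillar genes Col11a1 and Col2a1 are known chiefly from cartilage. Col11a1, a chain of type XI, which nucleates cartilage fibrils but is made by other stromal cells too, had 0.46, 0.50 and 0.42 FPKM in the WGFT17 libraries, 5.37, 4.96 and 5.65 FPKM in the JHU083 libraries and 6.83, 7.39 and 6.21 FPKM in the Control libraries. It was 15.8-fold lower in WGFT17 than in Control (adjusted p = 9.83e-11) and 1.36-fold lower in JHU083 (adjusted p = 0.00319). Col2a1, the chain of type II, the main fibre of cartilage that is also made in the eye, had 0.09, 0.07 and 0.05 FPKM in WGFT17, 2.05, 1.69 and 1.09 FPKM in JHU083 and 4.81, 4.43 and 4.83 FPKM in Control. The WGFT17 levels rest on 59, 52 and 33 estimated counts. Its log2 change was -6.14 in WGFT17 (SE 0.26, adjusted p = 5.56e-09) and -1.64 in JHU083 (SE 0.2, adjusted p = 0.000774). Of 6 cartilage markers, Comp, Matn1, Matn3, Hapln1 and Chad were at or under 0.440 FPKM in every library. Among them Matn3 was listed at 0 in all 6 libraries of WGFT17 and JHU083 and at 0.07, 0.08 and 0.04 FPKM in Control. Comp also had its highest mean in Control (0.387 FPKM), while Matn1, Chad and Hapln1 had theirs in JHU083 (0.203, 0.0700 and 0.0167 FPKM). Sox9, the regulator of chondrocytes, averaged 0.930 ± 0.0872 FPKM in WGFT17, 1.87 ± 0.377 FPKM in JHU083 and 1.80 ± 0.225 FPKM in Control (mean ± SD, n = 3 each).

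All 3 tested basement membrane chains were lower in both drug groups. Col4a1 and Col4a2, which assemble into the common form of type IV collagen, had close levels in each library. Col4a1 had 5.12, 6.31 and 5.77 FPKM in the WGFT17 libraries, 19.7, 17.1 and 13.6 FPKM in the JHU083 libraries and 24.8, 27.2 and 22.8 FPKM in the Control libraries, and Col4a2 had 4.52, 5.91 and 4.84 FPKM in the WGFT17 libraries, 16.4, 14.0 and 11.1 FPKM in the JHU083 libraries and 19.8, 23.6 and 20.4 FPKM in the Control libraries. Col4a1 was 4.69-fold lower in WGFT17 than in Control (log2 change -2.23, SE 0.12, adjusted p = 5.28e-08) and 1.58-fold lower in JHU083 (-0.66, SE 0.12, adjusted p = 0.00356). Col4a2 changed by -2.17 in WGFT17 (SE 0.14, adjusted p = 1.85e-07) and by -0.72 in JHU083 (SE 0.13, adjusted p = 0.00461), differing from Col4a1 by less than 1 SE in both comparisons. Col4a5, on the X chromosome, averaged 0.563 ± 0.0764 FPKM in WGFT17, 1.36 ± 0.0493 FPKM in JHU083 and 1.72 ± 0.189 FPKM in Control (mean ± SD, n = 3 each). Its fall in WGFT17 was 1.71 on the log2 scale (adjusted p = 7.97e-07), and its smaller fall of 0.44 in JHU083 (adjusted p = 0.0289) was not called without JHU083 replicate 1 or 2 or Control replicate 1 or 2, nor in limma fits of log2 FPKM (adjusted p = 0.0646 and 0.114). Its head-to-head neighbour Col4a6 reached at most 0.03 FPKM in any library, and Col4a3 and Col4a4, another such pair, found in the kidney filter, at most 0.08 FPKM.

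Col4a1 and Col4a2 lie head to head on chromosome 8, and their annotated 5′ ends overlap by 22 bases. RefSeq promoter windows (GRCm38.p6, 250 bases before to 50 after the start) were found for 34 of the 43 genes and 14 of the 18 tested. They are shown here for this pair, which moved together, for Col1a2, the most abundant collagen with a window, and for both starts of Col18a1, which went the other way. Each is written 5′ to 3′ on the gene's own strand, and capitals mark CCAAT or its complement ATTGG, the letters bound by the factor NF-Y, which is known to act on type I collagen promoters.
Col4a1, chr8:11312777-11313076, minus strand: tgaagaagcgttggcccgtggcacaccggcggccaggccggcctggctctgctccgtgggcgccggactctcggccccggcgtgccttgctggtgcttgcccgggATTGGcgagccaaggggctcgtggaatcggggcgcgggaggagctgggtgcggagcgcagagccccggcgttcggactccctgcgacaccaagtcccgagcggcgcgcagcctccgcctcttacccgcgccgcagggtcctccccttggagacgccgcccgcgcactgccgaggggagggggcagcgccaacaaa
Col4a2, chr8:11312555-11312854, plus strand: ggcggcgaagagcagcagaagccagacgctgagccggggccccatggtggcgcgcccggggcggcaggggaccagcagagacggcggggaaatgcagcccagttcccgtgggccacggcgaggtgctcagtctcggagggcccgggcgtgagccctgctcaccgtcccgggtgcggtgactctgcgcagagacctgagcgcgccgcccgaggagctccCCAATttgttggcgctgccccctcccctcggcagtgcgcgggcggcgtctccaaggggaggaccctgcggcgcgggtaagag
Col1a2, chr6:4505368-4505667, plus strand: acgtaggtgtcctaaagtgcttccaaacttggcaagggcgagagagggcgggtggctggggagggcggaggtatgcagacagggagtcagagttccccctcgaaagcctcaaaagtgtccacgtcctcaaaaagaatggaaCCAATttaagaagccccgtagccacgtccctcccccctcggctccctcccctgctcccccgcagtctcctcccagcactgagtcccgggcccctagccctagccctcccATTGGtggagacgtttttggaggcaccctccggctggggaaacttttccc
Col18a1, upstream start, chr10:77166481-77166780, minus strand: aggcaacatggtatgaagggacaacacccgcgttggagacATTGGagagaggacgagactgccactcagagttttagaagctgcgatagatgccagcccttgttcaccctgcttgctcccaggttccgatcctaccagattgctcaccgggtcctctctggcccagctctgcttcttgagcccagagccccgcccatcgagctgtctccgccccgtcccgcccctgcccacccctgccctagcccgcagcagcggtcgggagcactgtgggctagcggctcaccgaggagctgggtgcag
Col18a1, downstream start, chr10:77113656-77113955, minus strand: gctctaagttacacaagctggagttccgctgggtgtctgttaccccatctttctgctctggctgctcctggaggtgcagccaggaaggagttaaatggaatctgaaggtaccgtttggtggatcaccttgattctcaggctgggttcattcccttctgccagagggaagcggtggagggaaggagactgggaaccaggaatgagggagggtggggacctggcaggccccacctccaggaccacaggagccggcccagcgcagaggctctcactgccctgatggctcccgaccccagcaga

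The windows of Col4a1 and Col4a2 share 78 bases, read in opposite directions and lying at the end of both sequences as printed. In both genes the CCAAT letters begin before that stretch. On either strand, CCAAT was found in the windows of 8 of the 14 tested collagen genes and 12 of all 34, against 37.4% of 32851 windows of the same length over all genes. The GC box letters GGGCGG, on either strand, were found for 11 of 14 and 22 of 34, against 35.7%, and the TATA letters TATAAA for 1 of 14 and 5 of 34, against 13.6%. A collagen gene with more than 1 window was counted if any of its windows held the letters. The shares over all genes are counted per window instead. Of the Col18a1 windows, the upstream one holds CCAAT once and the downstream one does not. A match of letters is a description of the window and shows no binding.

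Type VI forms filaments that tie cells to the matrix, and its 3 tested chains were lower in both drug groups. Col6a1 (chromosome 10, 76708792 to 76726168) had 7.44, 6.91 and 7.92 FPKM in the WGFT17 libraries, 111, 101 and 85.9 FPKM in the JHU083 libraries and 125, 143 and 132 FPKM in the Control libraries. Its level was 19.4-fold lower in WGFT17 than in Control (log2 change -4.27, SE 0.099, adjusted p = 9.83e-11) and 1.44-fold lower in JHU083 (-0.52, SE 0.086, adjusted p = 0.00249). The neighbouring gene Col6a2, on the same strand, had 3.85, 3.98 and 4.43 FPKM in the WGFT17 libraries, 46.1, 43.2 and 39.3 FPKM in the JHU083 libraries and 54.1, 63.8 and 59.8 FPKM in the Control libraries. It moved much like Col6a1, by -3.97 in WGFT17 (SE 0.086) and -0.56 in JHU083 (SE 0.076). Col6a3 (chromosome 1, 90765923 to 90843971), the longest chain of type VI, had 0.63, 0.66 and 0.76 FPKM in the WGFT17 libraries, 13.0, 12.3 and 11.7 FPKM in the JHU083 libraries and 25.6, 28.7 and 26.6 FPKM in the Control libraries. It fell further than its partners in both groups, 42.2-fold in WGFT17 (-5.40, SE 0.081, adjusted p = 8.11e-12) and 2.33-fold in JHU083 (-1.22, SE 0.066, adjusted p = 7.9e-06). As a share of collagen FPKM, the 6 genes of this class held 3.49% to 3.74% in WGFT17, 11.1% to 11.5% in JHU083 and 10.5% to 11.6% in Control.

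Among the FACIT collagens, Col12a1 (chromosome 9, 79598991 to 79718720), which coats type I fibrils in dense connective tissue, had 8.89, 9.11 and 9.18 FPKM in the WGFT17 libraries, 58.5, 55.2 and 61.3 FPKM in the JHU083 libraries and 79.7, 81.2 and 79.8 FPKM in the Control libraries. It was 9.54-fold lower in WGFT17 (log2 change -3.25, SE 0.055, adjusted p = 1.6e-11) and 1.47-fold lower in JHU083 (-0.55, SE 0.051, adjusted p = 0.000182) than in Control. Col16a1, a FACIT of skin and cartilage, had 4.32, 4.17 and 4.47 FPKM in the WGFT17 libraries, 12.0, 11.4 and 9.53 FPKM in the JHU083 libraries and 11.2, 11.9 and 11.2 FPKM in the Control libraries. WGFT17 was 2.85-fold lower than Control (adjusted p = 2.75e-08), while JHU083 and Control overlapped (log2 change -0.15, SE 0.075, adjusted p = 0.168).

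The network collagen Col8a1 (chromosome 16, 57624258 to 57754737), made by endothelial and smooth muscle cells and described in macrophages, had 4.80, 4.44 and 4.86 FPKM in the WGFT17 libraries, 15.2, 13.7 and 14.5 FPKM in the JHU083 libraries and 12.4, 12.7 and 10.5 FPKM in the Control libraries. It was 2.72-fold lower in WGFT17 than in Control (log2 change -1.44, SE 0.073, adjusted p = 2.58e-08) and 3.11-fold lower than in JHU083 (-1.64, SE 0.073, adjusted p = 1.22e-08). Between JHU083 and Control it was the only one of the 18 with a positive log2 change, 0.19 (SE 0.071), and all 3 JHU083 libraries lay above all 3 Control libraries. This difference did not pass (adjusted p = 0.0709), but it was called with library totals in place of TMM factors (0.23, adjusted p = 0.0481), with a limit of 5 FPKM (0.22, adjusted p = 0.0474) and in limma fits of log2 FPKM (0.27 and 0.29, adjusted p = 0.0246 and 0.0274).

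Col18a1 (chromosome 10, 77052178 to 77166548) encodes type XVIII, a basement membrane collagen whose C-terminal fragment is endostatin, an inhibitor of vessel growth. It had 20.2, 19.9 and 20.6 FPKM in the WGFT17 libraries, 9.61, 8.87 and 7.58 FPKM in the JHU083 libraries and 8.74, 8.39 and 8.47 FPKM in the Control libraries. WGFT17 stood 2.197-fold above Control (log2 change 1.14, SE 0.072, adjusted p = 1.58e-07) and 2.30-fold above JHU083 (1.20, SE 0.072, adjusted p = 1.18e-07). JHU083 and Control overlapped (-0.07, SE 0.071, adjusted p = 0.512). Its share of collagen FPKM was 5.85% to 5.99% in WGFT17, 0.613% to 0.649% in JHU083 and 0.410% to 0.450% in Control. Col6a1, which changed in the opposite direction, is its nearest collagen neighbour on the same strand of chromosome 10, with 326009 bases between the genes. The gene table sums the transcripts of both Col18a1 starts.

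The other 25 collagen genes were under the limit, and 12 of them had group means under 0.1 FPKM in all 3 groups (Col4a3, Col4a4, Col4a6, Col6a5, Col6a6, Col9a2, Col13a1, Col17a1, Col19a1, Col25a1, Col26a1 and Col28a1). The highest of the 25 was Col15a1, the second multiplexin, with 0.23, 0.22 and 0.23 FPKM in the WGFT17 libraries, 0.68, 0.63 and 0.64 FPKM in the JHU083 libraries and 1.06, 1.1 and 1.04 FPKM in the Control libraries. Its groups did not overlap, and unlike Col18a1 it was lowest in WGFT17. Col8a2, the partner chain of Col8a1, had a highest group mean of 0.657 FPKM, in Control, and Col10a1, a marker of hypertrophic cartilage, of 0.467 FPKM. Col11a2 reached its highest mean in WGFT17, with 0.57, 0.52 and 0.54 FPKM there, 0.34, 0.42 and 0.28 FPKM in JHU083 and 0.28, 0.25 and 0.27 FPKM in Control. For Col6a4, Col7a1, Col9a3, Col14a1, Col20a1, Col22a1, Col23a1, Col24a1 and Col27a1 the highest group means lay between 0.130 and 0.480 FPKM.

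When the same test was run without a limit on FPKM, 8 of these 25 genes were lower and 1 higher in WGFT17 than in Control, against 14.9% lower and 12.4% higher among all 28998 genes. The higher one was Col11a2 (log2 change 0.96, adjusted p = 0.00231), and the lower ones were Col6a4, Col6a5, Col7a1, Col8a2, Col10a1, Col15a1, Col24a1 and Col27a1. Col15a1 had a log2 change of -2.29 (adjusted p = 4.55e-07). In WGFT17 against JHU083, 9 were lower and 1 higher (11.7% and 8.73% over all genes), the added one being Col23a1. Col15a1 was lower and Col9a3 higher in JHU083 than in Control (3.53% and 2.99% over all genes). Most of these genes had few reads: Col9a3, for example, averaged 0.130 FPKM in JHU083 and 0.0333 FPKM in Control.

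**Figure D3:**
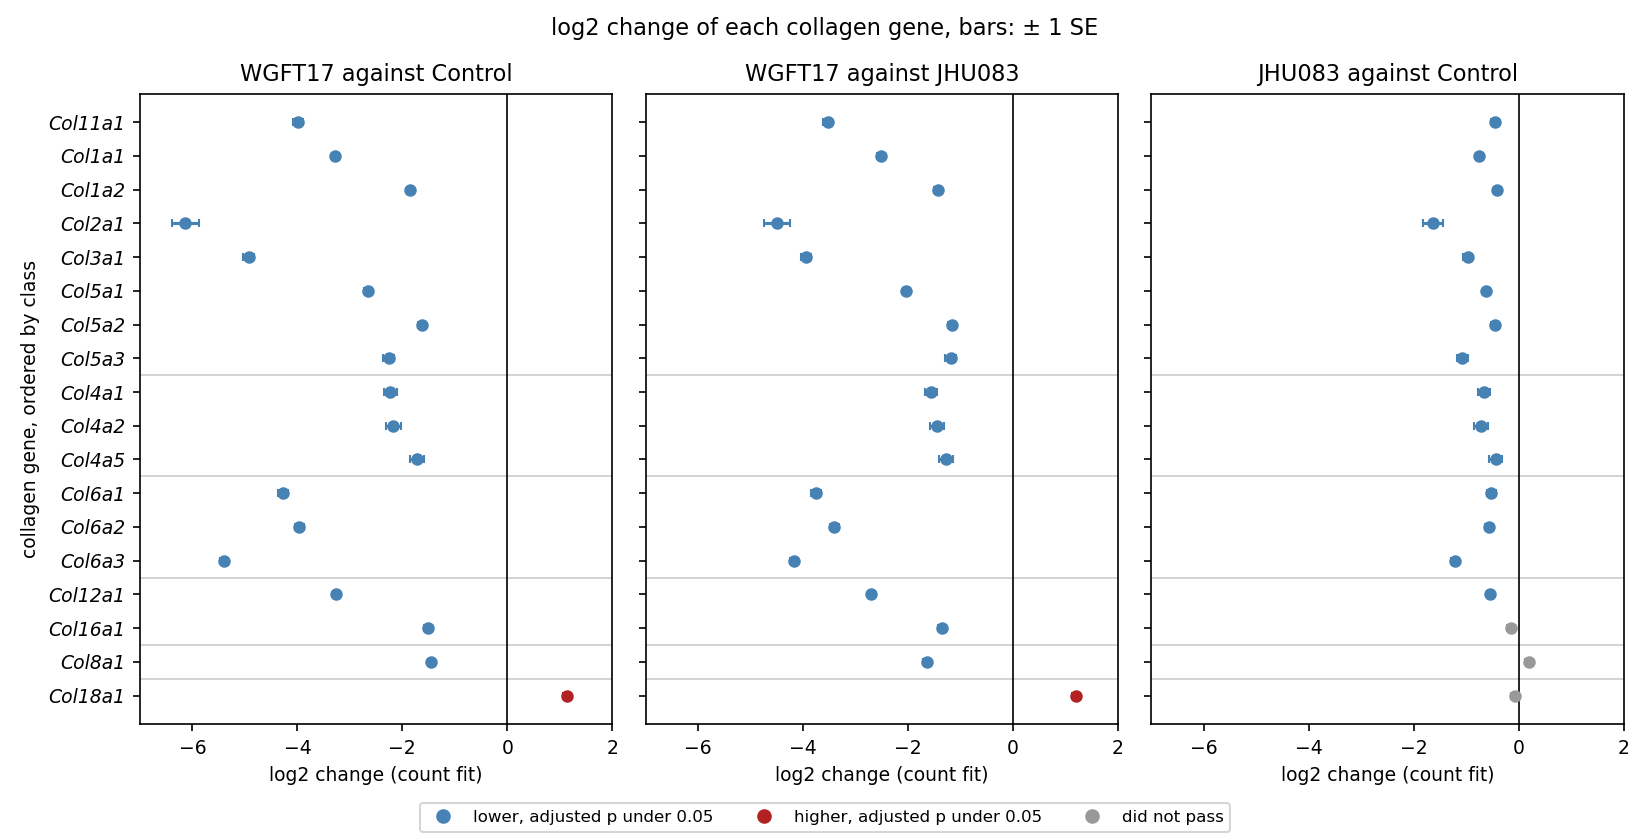
Log2 change of each tested collagen gene in the count fit, in 3 panels for WGFT17 against Control, WGFT17 against JHU083 and JHU083 against Control; bars show 1 SE, and colour shows whether the change passed an adjusted p under 0.05. Changes spread from -6.14 to 1.14 in the panel on the left and from -1.64 to 0.19 in the panel on the right.

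Set directly against each other, WGFT17 cells had less of 17 tested collagens than JHU083 cells, and their log2 changes ran from -4.50 for Col2a1 to -1.16 for Col5a2. Col6a3 was 18.1-fold lower (log2 change -4.18, SE 0.077, adjusted p = 7.93e-11), Col3a1 15.4-fold (-3.95, SE 0.098, adjusted p = 2.47e-10) and Col1a1 5.71-fold (-2.51, SE 0.069, adjusted p = 3.95e-10). Col2a1 and Col6a3 passed the limit of 1 FPKM only through JHU083 and Control, so their falls are partly built into their selection. By class, the median log2 change was -3.75 for beaded filament chains, -2.27 for fibrillar, -2.03 for FACIT and -1.45 for basement membrane chains. In WGFT17 against Control the medians of these classes were -4.27, -2.96, -2.38 and -2.17. For JHU083 against Control they were -0.56, -0.69, -0.35 and -0.66. These medians rest on 3, 8, 2 and 3 genes. They include Col6a3 (beaded filament), Col2a1, Col5a3 and Col11a1 (fibrillar) and Col4a5 (basement membrane), which passed only through JHU083 and Control. Doses are not given in the labels, so the drugs cannot be placed at matched doses.

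FPKM ratios between chains, most of which assemble together, were taken in each library. Their level rests on the authors' scaling to length, so the shifts between groups are what can be read. The ratio of Col1a1 to Col1a2 was 0.861, 0.830 and 0.820 in WGFT17, 1.76, 1.73 and 1.81 in JHU083 and 2.29, 2.22 and 2.25 in Control. The 3 groups did not overlap, and in WGFT17 the FPKM of Col1a1 was below that of Col1a2 in every library. By estimated counts, which are not divided by length, Col1a1 was below Col1a2 in JHU083 as well. The JHU083 counts were 250772, 248052 and 206086 for Col1a1 and 269994, 271065 and 216088 for Col1a2. The FPKM ratio of Col5a1 to Col5a2 moved likewise, with 0.558, 0.540 and 0.523 in WGFT17, 0.967, 0.991 and 1.00 in JHU083 and 1.09, 1.115 and 1.11 in Control. Col6a3 to Col6a1 was 0.0847, 0.0955 and 0.0960 in WGFT17, 0.117, 0.122 and 0.136 in JHU083 and 0.205, 0.201 and 0.201 in Control, again without overlap. The ratio of the head-to-head pair Col4a1 to Col4a2 overlapped between WGFT17 and Control and between JHU083 and Control, but not between WGFT17 and JHU083. It was 1.13 ± 0.0623, 1.22 ± 0.0167 and 1.18 ± 0.0717 in WGFT17, JHU083 and Control (mean ± SD, n = 3 each). Col6a1 to Col6a2 averaged 1.82 ± 0.102 in WGFT17, 2.31 ± 0.109 in JHU083 and 2.25 ± 0.0488 in Control. Col3a1 to Col1a1 averaged 0.0229 ± 0.00170 in WGFT17, 0.0622 ± 0.00585 in JHU083 and 0.0719 ± 0.00740 in Control. Both of these ratios overlapped between JHU083 and Control and in no other comparison. Of 18 exact two-sided permutation tests over libraries, 14 had no overlap and so gave the smallest p that 3 against 3 libraries allow, 0.1, which adjusted over the 18 tests was 0.129.

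**Figure D4:**
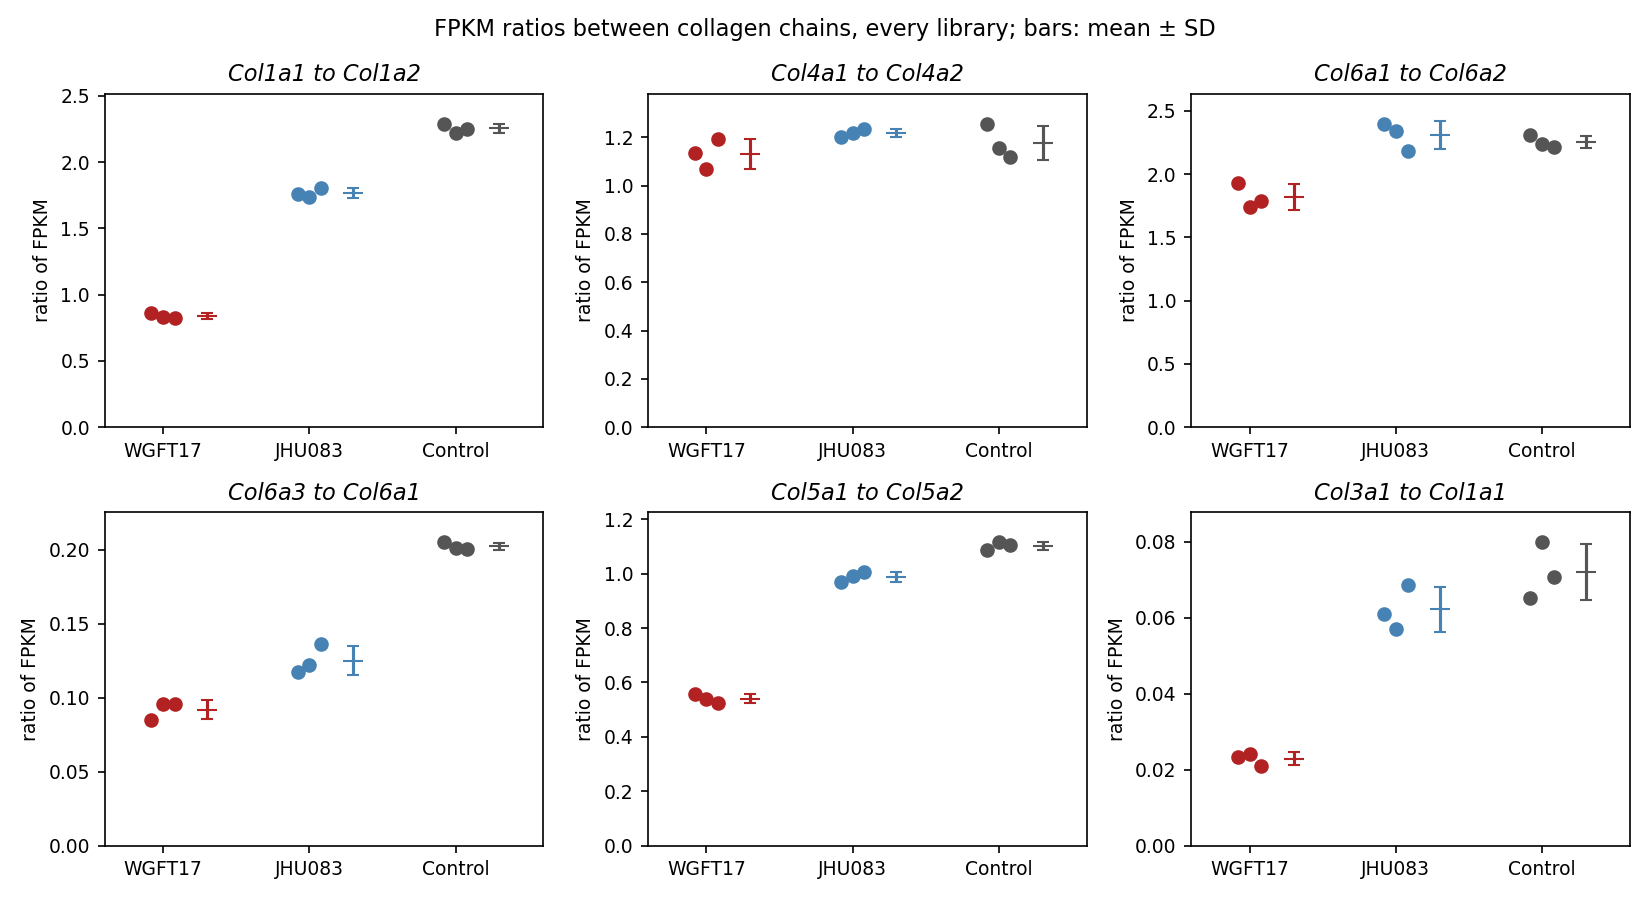
FPKM ratios between 6 pairs of collagen chains, with 1 point per library and the mean ± SD beside it, for WGFT17, JHU083 and Control. The ratio of Col1a1 to Col1a2 averages 0.837 in WGFT17 and 2.25 in Control, while the ratio of Col4a1 to Col4a2 averages 1.13 and 1.18.

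Most genes that build collagen from its chains were lower as well, and the median change of each list of them was smaller than that of the collagens. Chains are hydroxylated in the endoplasmic reticulum before they fold, and of 13 tested genes of this step, 10 were lower in WGFT17 than in Control and 3 did not pass, where 30.0% of all tested genes were lower (median log2 change -0.75). In JHU083 against Control, 9 were lower and 4 did not pass, where 12.5% of all tested genes were lower (median -0.30). In WGFT17 against JHU083, 9 were lower and 2 higher (median -0.40), where 24.4% of all tested genes were lower and 20.4% higher. The 2 higher are thus no more than the background. The prolyl hydroxylase subunit P4ha3 had 1.5, 1.35 and 1.58 FPKM in WGFT17, 10.8, 10.03 and 9.75 FPKM in JHU083 and 8.91, 9.44 and 8.84 FPKM in Control. WGFT17 was lower than Control (log2 change -2.72, adjusted p = 5.73e-10) and than JHU083 (-2.80, adjusted p = 6.68e-10), and JHU083 against Control did not pass (0.07, adjusted p = 0.502). P4ha1, the widely used subunit, fell by 0.34 on the log2 scale in WGFT17 and by 0.27 in JHU083 (adjusted p = 0.000384 and 0.00679). P4ha2 changed by -1.41 and -0.53, their shared partner P4hb by -0.98 and -0.36, and the prolyl isomerase gene Ppib by -0.75 and -0.35, in WGFT17 and JHU083 against Control (adjusted p of at most 0.0018).

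Of 10 genes of folding and export, 8 were lower and 2 higher in WGFT17, and 5 lower and 1 higher in JHU083, against Control (medians -1.27 and -0.31). Over all tested genes, 30.0% were lower and 28.0% higher in WGFT17, and 12.5% lower and 11.5% higher in JHU083, so the counts of higher genes are no more than the background. In WGFT17 against JHU083 again 8 were lower and 2 higher, where 24.4% of all tested genes were lower and 20.4% higher. Serpinh1, the collagen chaperone HSP47, had 113, 110.0 and 124 FPKM in WGFT17, 235, 219 and 175 FPKM in JHU083 and 287, 307 and 288 FPKM in Control, without overlap. Its log2 change was -1.46 in WGFT17 and -0.58 in JHU083 (adjusted p = 1.52e-07 and 0.00194). Fkbp10, another chaperone of procollagen, changed by -2.21 and -0.52, Creb3l1, a transcription factor that drives collagen genes and secretion in bone, by -1.91 and -0.69, and the coat protein gene Sec23a by -1.09 and -0.44 (adjusted p of at most 0.00258). Fkbp14 was lower in WGFT17 (-1.85, adjusted p = 4.44e-08) and did not pass in JHU083 (-0.05, adjusted p = 0.753).

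After secretion, propeptides are cut off and chains are cross-linked. Of 9 tested genes of this step, 8 were lower in WGFT17 and 1 did not pass, and 5 were lower in JHU083 and 4 did not pass, against 30.0% and 12.5% lower over all tested genes (medians -1.52 and -0.33). In WGFT17 against JHU083, 8 were lower and 1 did not pass, where 24.4% of all tested genes were lower. Pcolce, the enhancer of propeptide cleavage, had 8.71, 9.29 and 9.00 FPKM in WGFT17, 51.0, 45.5 and 43.0 FPKM in JHU083 and 55.6, 59.6 and 59.2 FPKM in Control (log2 change -2.80 in WGFT17 and -0.42 in JHU083, adjusted p = 1.23e-10 and 0.00166). The cross-linking enzyme gene Lox had 99.98, 95.2 and 104 FPKM in WGFT17, 268, 242 and 254 FPKM in JHU083 and 273, 273 and 251 FPKM in Control. WGFT17 was lower (-1.52, adjusted p = 2.62e-09), and JHU083 did not pass (-0.16, adjusted p = 0.0674). Its relative Loxl2 changed by -2.29 and -0.33, and the propeptidase gene Adamts2 by -2.47 and -0.32, in WGFT17 and JHU083 (adjusted p of at most 0.0231).

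Receptors and degrading enzymes moved less uniformly. Of 6 tested receptor genes, 5 were lower and 1 higher in WGFT17, and 1 lower and 1 higher in JHU083, against Control (medians -0.39 and 0.04). The JHU083 counts are near the 12.5% lower and 11.5% higher over all tested genes. In WGFT17, 30.0% of all tested genes were lower and 28.0% higher, so the 1 higher receptor gene is no more than the background. Itga11, a collagen-binding integrin of fibroblasts, had 2.45, 2.40 and 2.42 FPKM in WGFT17, 30.8, 27.5 and 25.8 FPKM in JHU083 and 34.7, 34.0 and 31.5 FPKM in Control (log2 change -3.89 in WGFT17 and -0.35 in JHU083, adjusted p = 2.98e-11 and 0.00375). Lair1, an inhibitory collagen receptor of leukocytes, had 14.6, 13.4 and 14.9 FPKM in WGFT17, 17.4, 18.2 and 18.6 FPKM in JHU083 and 15.4, 14.6 and 14.8 FPKM in Control. Its changes were small, -0.17 in WGFT17 and 0.18 in JHU083 (adjusted p = 0.0162 and 0.0332). Mrc2, which takes up collagen for lysosomal breakdown, fell by 0.49 on the log2 scale in WGFT17 (adjusted p = 0.000406) and did not pass in JHU083 (0.09, adjusted p = 0.426). The receptor kinase gene Ddr1 was lower in WGFT17 (-1.78, adjusted p = 9.43e-06) and did not pass in JHU083 (-0.24, adjusted p = 0.35).

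Of 7 genes of collagen breakdown, 6 were lower in WGFT17 and 1 did not pass, and 2 were lower in JHU083 and 5 did not pass, against Control (medians -0.65 and -0.02), where 30.0% and 12.5% of all tested genes were lower. The gelatinase gene Mmp2 had 37.0, 36.1 and 39.9 FPKM in WGFT17, 89.3, 88.2 and 80.5 FPKM in JHU083 and 97.8, 113 and 101 FPKM in Control, lower in both drug groups (log2 change -1.57 and -0.37, adjusted p = 5.05e-09 and 0.00308). Ctsk, the collagen-degrading cathepsin of osteoclasts, was lower by 0.42 in WGFT17 and by 0.57 in JHU083 (adjusted p = 0.000174 and 0.00055). The protease genes Mmp9 and Mmp13 were lower in WGFT17 (-2.16 and -1.52, adjusted p = 2.23e-07 and 1.62e-05) and did not pass in JHU083 (-0.02 and 0.21, adjusted p = 0.936 and 0.361).

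Markers of cells that can make collagen were mostly lower in WGFT17, and fewer of them passed in JHU083. Over all tested genes, 30.0% were lower and 28.0% higher in WGFT17, and 12.5% lower and 11.5% higher in JHU083, against Control. Of 12 fibroblast markers other than collagens, 7 were tested, and all 7 were lower in WGFT17 than in Control (median log2 change -1.82), while 3 of 7 were lower in JHU083 and 4 did not pass (median -0.15). Summed over the list, their level was 36.9 to 37.8 FPKM in WGFT17, 108 to 119 FPKM in JHU083 and 134 to 138 FPKM in Control. Among the untested fibroblast markers, Lum, Mfap5, Dpt and Fap averaged at most 0.237 FPKM in WGFT17, where Dpt was listed at 0 in 2 libraries and Lum in 2. Thy1 did not follow them, with means of 0.873, 0.897 and 0.723 FPKM in WGFT17, JHU083 and Control. Of 8 smooth muscle and pericyte markers, 5 were tested, of which 5 were lower in WGFT17 and 3 in JHU083, with sums of 131 to 159 FPKM in WGFT17, 809.8 to 1039 FPKM in JHU083 and 1233 to 1333 FPKM in Control. Cnn1, Des and Mcam of this list averaged 0.463, 0.0967 and 0.407 FPKM in WGFT17. They passed the limit of 1 FPKM only through JHU083 and Control, so their falls are partly built into their selection. Des also varied within JHU083 (1.46, 0.17 and 2.48 FPKM). Of 8 osteoblast markers, 4 were tested, 4 of them lower in WGFT17 and 1 in JHU083, with sums of 6.05 to 7.92 FPKM in WGFT17, 22.8 to 26.7 FPKM in JHU083 and 25.8 to 31.8 FPKM in Control. The untested ones averaged at most 1.19 FPKM in any group. Of these, Dmp1 and Phex had their lowest mean in WGFT17, and Bglap and Bglap2 their highest. For 8 endothelial markers, of which 3 of 4 tested were lower and 1 higher in WGFT17, the sums were 12.0 to 13.7 FPKM in WGFT17, 10.3 to 12.6 FPKM in JHU083 and 9.95 to 11.1 FPKM in Control. The higher WGFT17 sum came from Vwf, the von Willebrand factor gene, with 9.46, 9.71 and 10.5 FPKM in WGFT17, 3.22, 3.33 and 2.82 FPKM in JHU083 and 3.43, 3.19 and 2.75 FPKM in Control, while the junction genes Pecam1 (-1.38, adjusted p = 5.9e-06) and Cdh5 (-1.25, adjusted p = 5.84e-05) were lower in WGFT17 than in Control. With 4 genes tested in each list, 1 osteoblast gene lower in JHU083 and 1 endothelial gene higher in WGFT17 cannot be set apart from the overall shares. The osteoblast gene Ibsp and the endothelial genes Pecam1 and Emcn averaged 0.353, 0.787 and 0.560 FPKM in WGFT17. These genes too passed the limit only through JHU083 and Control, so their falls are partly built in. For 12 macrophage markers, 5 higher and 3 lower in WGFT17 and 3 higher and 2 lower in JHU083, the sums were 11023 to 12268, 10544 to 11773 and 9777 to 10619 FPKM in WGFT17, JHU083 and Control. These counts of lower macrophage genes are near the 30.0% and 12.5% over all tested genes, and the counts of higher ones lie above the 28.0% and 11.5%. In WGFT17 against Control, the 3 lower were Mrc1 (log2 change -1.03), Itgam (-0.55) and Csf1r (-0.36). The 5 higher were Fcgr1 (0.23), Mertk (0.24), Spi1 (0.37), Ptprc (0.56) and Csf2ra (1.07). The sums are mostly the lysozyme gene Lyz2, with means of 9660.0 ± 652, 8995 ± 544 and 8013 ± 459.6 FPKM in WGFT17, JHU083 and Control (mean ± SD, n = 3 each), which did not pass against Control in either drug group. The part of these markers in the collagen levels was not tested.

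Single fibroblast markers differed in how they changed. The receptor gene Pdgfra had 2.02, 2.58 and 2.19 FPKM in WGFT17, 4.87, 4.07 and 4.51 FPKM in JHU083 and 4.32, 4.58 and 4.36 FPKM in Control, and the proteoglycan gene Dcn had 9.40, 8.85 and 8.52 FPKM in WGFT17, 30.8, 26.4 and 30.7 FPKM in JHU083 and 27.3, 25.9 and 34.5 FPKM in Control. Both were lower in WGFT17 than in Control (log2 change -1.07, SE 0.095, and -1.82, SE 0.11), and in JHU083 neither passed (-0.07, SE 0.093, adjusted p = 0.594, and -0.09, SE 0.1, adjusted p = 0.555). Of the same list, Pdgfrb (-0.33, adjusted p = 0.00544) and Fbn1 (-0.48, adjusted p = 0.0025) were lower in JHU083 than in Control. Postn, a matrix protein bound to collagen, had 1.83, 1.37 and 1.9 FPKM in WGFT17, 8.80, 10.1 and 11.8 FPKM in JHU083 and 24.7, 22.5 and 18.5 FPKM in Control, and was lower in both (-3.79 and -1.18, adjusted p = 4.95e-09 and 0.000717). These fibroblast markers, Vwf, Pecam1, Cdh5, Lyz2 and Matn3 were singled out after their values were seen.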

How the data were processed

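RNA was measured in 3 libraries each of WGFT17, JHU083 and Control cells, grouped by the sample titles; column names match the labels' descriptions. Per the labels' protocols, poly(A) RNA was sequenced from both ends by a dUTP protocol. Among tools, the submitters' processing notes list StringTie 2.1.6, HISAT2 2.2.1, cutadapt 1.9, edgeR and DESeq2, without their roles; the build listed is mm9. The file's coordinates, however, equal those of GRCm38 for 26088 of 28926 identifiers found in GENCODE M21 (90.2%), and for 37 of 43 collagen genes, so GRCm38 is named. The deposited FPKM values were scaled by the authors to transcript length and depth, per the file headers. The expected counts (estimated counts) deposited by the authors are whole numbers, with an excess of genes at 4, so about 4 may stand for 1 read pair, which was not settled; totals were 56624220 to 69112134.

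Genes with a mean of at least 1 FPKM (11798) were tested with edgeR 4.0.16 (quasi-likelihood, TMM factors, R 4.3.3) on these counts, with the 9 libraries in 1 fit. SEs are the log2 change divided by the root of the F value. The method was tested on simulated data. Members, classes and lists were chosen with earlier results of these data known. The naming rule took all members, per library from 5 FPKM in some group, and up to 4 genes of each pathway list with the smallest adjusted p, plus Serpinh1, P4ha1, Lox and Mrc2. The markers named lie outside it. Col9a1 was not analysed here. Alternatives included DESeq2 1.42.0 and limma 3.58.1 on log2 FPKM with pseudocounts of 1 and 0.1.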

Additional observations from a re-analysis of the deposited data

How the results depend on the processing

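In both comparisons of WGFT17, each of the 18 genes kept its direction and its side of the threshold in all 392 repeats (22 alternatives of scaling, filter, test or left-out library). In JHU083 against Control, 362 of 392 repeats gave the same call, 21 lost it, 6 gained it and 3 turned direction. With a minimum fold of 1.5 in JHU083 against Control, 2 genes (Col2a1 and Col6a3) were called lower in place of 15, and 11 of all 11798 genes. The other 8 losses were in Col4a5: with no minimum, in limma at both pseudocounts, without replicate 1 or 2 of JHU083 or of Control, and with JHU083 replicate 3 alone, a single library assumed to vary like the other groups (adjusted p 0.0594 to 0.131). The count of higher genes in JHU083 was 1 in place of 0 with library totals alone, no minimum, a limit of 5 FPKM, and limma at either pseudocount; this was Col9a3 with no minimum and Col8a1 otherwise. With no minimum, 43 genes enter by construction, and 2 were higher in WGFT17 against Control and 2 in WGFT17 against JHU083, each in place of 1, with 26 in place of 17 lower in WGFT17 against JHU083. The count of lower genes in WGFT17 against Control rose too, as 8 of the 25 genes under 1 FPKM were lower there. Leaving out each library in turn gave 14 to 15 lower genes in JHU083 and 17 in both WGFT17 comparisons. Col18a1 in JHU083 against Control, not called, turned to 0.018 and 0.019 in limma fits of log2 FPKM and ranged from -0.15 to 0.014 when libraries were left out in turn, positive only without JHU083 replicate 3. With that replicate alone for its group, the log2 changes of Col18a1 and Col16a1 were -0.26 and -0.35. Of the JHU083 libraries, replicate 3 was lowest for 12 of the 18 genes. Limma fits of log2 FPKM moved the median of all genes to 0.079 and 0.093 in JHU083 against Control and to 0.095 and 0.11 in WGFT17 against Control. In JHU083 against Control, 1351 of all tested genes were higher and 1480 lower; with library totals these were 1738 and 1222, and in the limma fits 2524 and 1003, or 2485 and 951. The cause of these differences was not tested.

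Replicate numbers are shared between groups in the labels, but same-numbered libraries deviated little together: correlations of their deviations lay between -0.0338 and 0.161. Low correlations cannot settle whether the numbers pair the samples. With a replicate block, 15 genes were lower and 0 higher in JHU083 against Control, and 17 lower and 1 higher in both WGFT17 comparisons, so it changed no count. Depth limits the 25 genes under 1 FPKM, of which 12 stay under 0.1 FPKM, and the WGFT17 level of Col2a1.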
